A study of Peromyscus californicus with 17 samples.

Results

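Complement genes were followed in the lungs of male *Peromyscus californicus*, a monogamous deer mouse. Members were chosen by gene symbol: C3, Cfb, Cfd, Cfi, C1qa, C1qb, C1qc, C3ar1 and C5ar1. Of these 9, 8 were analysed among the 27786 genes of the expression table, and C3ar1 was not analysed here. RNA from whole lung was sequenced in 17 males of the genetically diverse stock IS, adults of a year or more. The 6 bonded males (B1 to B6) had lived with a mate for 4 months. The 6 bond-disrupted males (BD1 to BD6) had been paired for the same 4 months and were then taken out of the mating cage 7 days before collection. The 5 virgin males (V2 to V6) were of similar age and were kept in small groups without a mate. Bonded and bond-disrupted males that carry the same number are brothers, so the 12 paired males come from 6 families, and virgins of that number are their brothers or cousins.

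Complement is a cascade of plasma and tissue proteins that tags and lyses microbes and clears debris. It is started by C1q on bound antibody (classical pathway), by sugar-binding lectins, or by slow turnover of C3 that Cfb and Cfd amplify (alternative pathway), and all routes cleave C3. In the lung, C3 is made locally by epithelial cells as well as arriving from the liver, C1q comes mostly from macrophages, and the peptides released from C3 and C5 act on receptors of myeloid cells.

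Levels are in FPKM, the fragments of a gene divided by its transcript length and by the depth of the library. In the deposited table each value had been divided by the length of another gene, namely the gene lying as many rows above as the number of the column, and this was undone before anything was compared. For C3, whose own transcript length came out at 5087 bases, the lengths actually used ranged from 672 to 9508 bases across the 17 animals. As deposited, Cfb ran from 13.3 FPKM in B1 to 2627 FPKM in B6, a 197-fold range. On its own length of 2675 bases it ran from 17.4 FPKM in BD1 to 103 FPKM in BD3, a 5.92-fold range. The range of Cfd shrank from 84.3-fold to 1.78-fold in the same way. Closeness of a gene's values across animals was among the criteria for the lengths, so narrower ranges are in part built in. Values on the gene's own length are used below. All 8 genes reached 1 FPKM in at least 1 animal, the filter for testing, and at least 74 fragments lay behind each of their values. For Cfb and Cfi the recovered fragments were not whole in 10 and 12 of the 17 animals, so their levels are uncertain to the extent that fragments are shared with another gene.

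**Figure D1:**
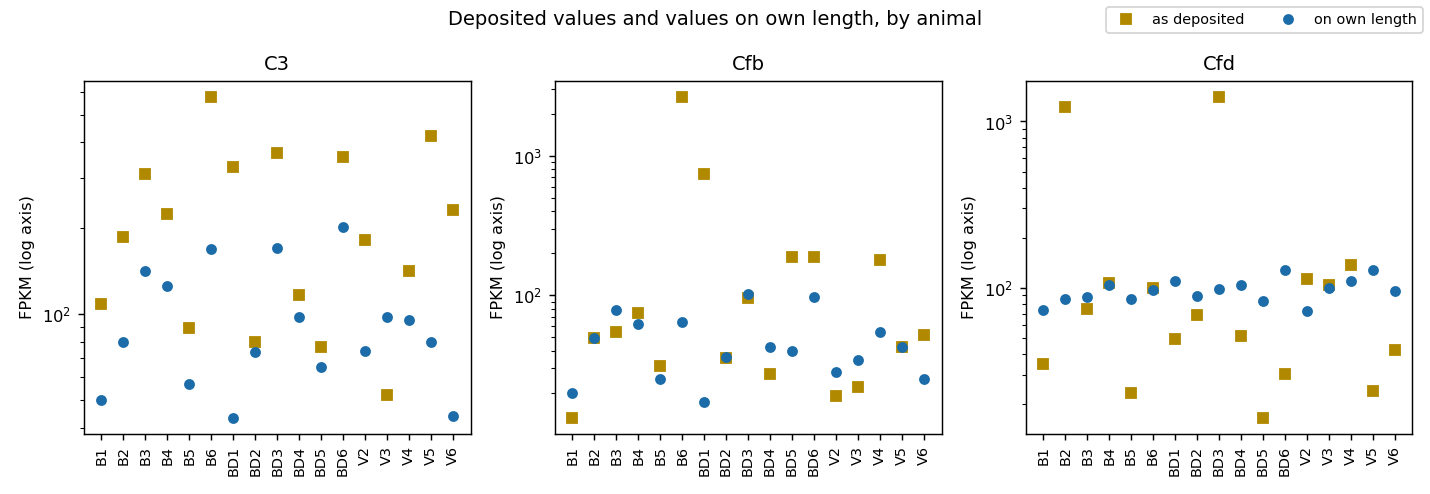
C3, Cfb and Cfd in each of the 17 animals, in FPKM on a log axis, as deposited (squares) and on the gene's own length (circles). The deposited Cfb value of B6, 2627 FPKM, becomes 64.8 FPKM, and the 17 values of Cfd close up to between 72.2 and 129 FPKM.

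Libraries held 15394248 fragments in B4, the shallowest, to 34115992 in B3, the deepest. Transcripts of alveolar type 2 cells and club cells were abundant in all 17 libraries, with summed levels of at least 14757 and 49399 FPKM. Heart muscle markers varied from 39.2 FPKM in B3 to 399 FPKM in B6. In whole tissue, fewer cells of a type and less RNA per cell cannot be told apart.

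C3 is the protein on which all routes converge. Its level in bonded males was 50.1 FPKM at the lowest, 103 at the median and 169 at the highest. Bond-disrupted males had 43.4, 85.6 and 202 FPKM for the same 3 points. The virgins V2, V3, V4, V5 and V6 had 74.1, 97.5, 95.1, 79.6 and 43.8 FPKM. The groups overlapped throughout: the 5 highest animals, BD6, BD3, B6, B3 and B4, were all paired males, and the 4 lowest, BD1, V6, B1 and B5, came from all 3 groups. Means were 104 ± 48.7 (SD, n = 6), 109 ± 63.4 (SD, n = 6) and 78.0 ± 21.6 FPKM (SD, n = 5). Bond-disrupted against bonded males the log2 fold change was 0.01 ± 0.38 (SE), with a 95% interval of -0.79 to 0.81 and an adjusted p of 0.999 in limma.

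Cfb encodes factor B, the protease that joins C3b in the convertase of the alternative pathway. It lay between 20.1 and 78.7 FPKM in bonded males (median 56.0) and between 17.4 and 103 FPKM in bond-disrupted males (median 41.3). V2 to V6 had 28.5, 34.7, 54.9, 42.5 and 25.2 FPKM. The 5 highest animals, BD3, BD6, B3, B6 and B4, and the 4 lowest, BD1, B1, B5 and V6, were those of C3 in another order. Cfb was 1.61 to 2.81 times lower than C3 in every animal, a far tighter span than that of either gene alone.

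Cfd encodes factor D (adipsin), which cleaves factor B and is best known from adipose tissue. Its values were 73.7, 86.9 and 105 FPKM at the lowest, median and highest bonded male, and 82.9, 101 and 129 FPKM among bond-disrupted males. V2 had 72.2 FPKM, V3 99.95, V4 109, V5 128 and V6 95.7. Unlike C3 and Cfb, Cfd kept within 1.78-fold over all 17 animals. Adipoq, which encodes adiponectin and defines adipose tissue, was between 0.0565 and 2.51 FPKM. Of the 8 adipocyte markers 4 passed the filter, and all 8 summed to 136 to 288 FPKM. Nearly all of that sum came from markers other than Adipoq, so it does not measure adipose tissue.

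Cfi encodes factor I, the protease that inactivates C3b and so opposes Cfb and Cfd. It was scarce, at 1.04 to 5.29 FPKM in bonded males (median 1.56) and 0.589 to 2.93 FPKM in bond-disrupted males (median 1.26). The 5 virgins had 0.945, 1.72, 1.26, 0.821 and 0.894 FPKM. B6 and its brother BD6 stood above all others, B6 by far, and the remaining values of the 3 groups were mixed.

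C1qa, C1qb and C1qc encode the 3 chains of C1q, the recognition protein of the classical pathway. For C1qa, bonded males had 19.2, 25.9 and 52.7 FPKM (lowest, median, highest) and bond-disrupted males 19.4, 23.5 and 66.4 FPKM. The virgin values were 23.8, 21.7, 31.9, 31.3 and 18.0 FPKM in the order V2 to V6. In both paired groups a few males rose well above the rest, namely B3 and B4, and BD3 and BD6, and no virgin reached them.

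C1qb showed the same 4 animals at the top, with BD3 at 56.7, B3 at 51.3, BD6 at 47.9 and B4 at 46.1 FPKM, while the next, B2, had 29.7 FPKM. Its medians were 26.5 FPKM in bonded, 22.7 in bond-disrupted and 20.2 in virgin males. The virgins V2 to V6 had 20.2, 19.3, 27.3, 23.9 and 13.6 FPKM. C1qc was between 10.7 and 38.3 FPKM in bonded males (median 23.3), between 12.1 and 51.1 FPKM in bond-disrupted males (median 21.1), and at 14.8, 16.9, 24.7, 30.5 and 13.7 FPKM in the virgins. The ratio of C1qb to C1qc stayed within 0.782 and 1.44 over the 17 animals.

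C5ar1 encodes the receptor for C5a, carried mainly by neutrophils and macrophages. It had 1.81, 2.96 and 3.97 FPKM at the lowest, median and highest bonded male and 1.38, 2.64 and 3.87 FPKM among bond-disrupted males. V2 to V6 had 1.78, 2.52, 2.57, 3.49 and 2.18 FPKM. Its values rested on 74 to 308 fragments, the fewest of the 8 genes.

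By level, C3 (97.9 FPKM on average) and Cfd (97.2 FPKM) came first, then Cfb (48.4 FPKM), C1qa (30.4 FPKM), C1qb (27.7 FPKM), C1qc (24.8 FPKM), C5ar1 (2.67 FPKM) and Cfi (1.59 FPKM). C3 and Cfd could not be ordered, since C3 was the higher in 6 of 17 animals. Among the C1q chains, C1qa exceeded C1qb in 14 of 17 animals and C1qb exceeded C1qc in 13. C1qc exceeded C5ar1 in all 17 animals, Cfd exceeded Cfb in 16, Cfb exceeded C1qa in 16 and C5ar1 exceeded Cfi in 15.

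**Figure D2:**
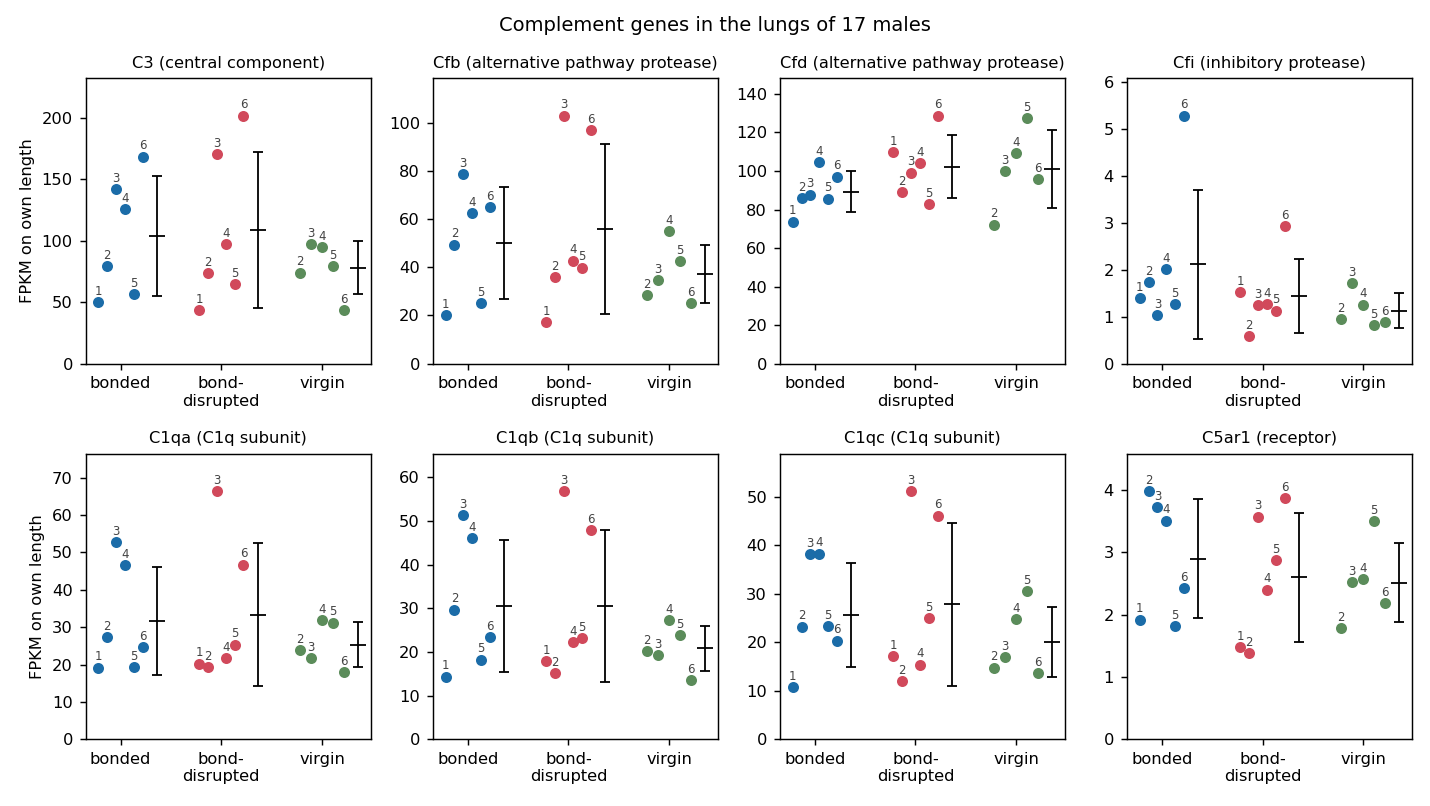
FPKM on the gene's own length for the 8 complement genes, by group, with 1 point for each animal labelled with its number. The black bars are the mean and SD of each group. BD3 and BD6 lie at or near the top for C3, Cfb and the C1q chains, Cfd varies least, and the groups overlap for every gene.

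The comparison of bonded with bond-disrupted males asks what the loss of a mate did to these genes. None of the 8 was called, at an adjusted p under 0.1 and a change of at least 2-fold in limma, where 0 of all 15042 genes tested were called (0%). None had an unadjusted p under 0.05, against 886 genes (5.89%) over the whole table. Of the 8, 5 were higher and 3 lower in bond-disrupted males. Their median log2 fold change was 0.01, beside 0.01 over all genes. Cfd came nearest, with a log2 fold change of 0.19 ± 0.13 (SE), a 95% interval of -0.09 to 0.46 and an adjusted p of 0.876 in limma. Cfi was at -0.29 ± 0.24 (SE), and without B6 it was at -0.06. For the C1q chains the estimates were 0.02, -0.03 and 0.02, and the widest of their 95% intervals, that of C1qc, ran from -0.74 to 0.79. On the scale of log2(FPKM + 1) the 95% intervals of all 8 genes lay between -1 and 1, which for Cfi, at few FPKM, understates the change in FPKM itself.

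Virgins were compared with bonded males to ask about the pair bond itself. Again no complement gene was called, as was no other gene (0%), and none of the 8 had an unadjusted p under 0.05, against 539 genes (3.58%). Here 7 of 8 genes were lower in virgins and only Cfd was higher. The median log2 fold change was -0.30, beside 0.01 over all genes tested. Cfi had the lowest unadjusted p, 0.0947, with a log2 fold change of -0.45 ± 0.26 (SE) and an adjusted p of 1 in limma, and leaving out 1 animal moved it to between -0.55 (without B3) and -0.23 (without B6). C1qb was at -0.42 ± 0.36 and C3 at -0.32 ± 0.40 (SE). Leaving out 1 animal moved C1qb to between -0.60 (without B1) and -0.25 (without B3), and C3 to between -0.49 (without B1) and -0.12 (without V6). Most of the genes that were lower, other than Cfi, move together across animals, so these are not separate observations. When V2, the lowest in Cfd, was left out, 1 of the 8 genes had an unadjusted p under 0.05, namely Cfd, with a log2 fold change of 0.28 and an adjusted p of 1 in limma.

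Virgin against bond-disrupted males gave 0 calls among the 8 genes and among all genes (0%), and 0 of 8 genes at an unadjusted p under 0.05, against 639 genes (4.25%). All 8 estimates were below 0, that of C5ar1 by less than 0.01 on the log2 scale, and their median was -0.28, beside 0.00 over all genes. The farthest from 0 was C1qb, at -0.39 ± 0.36 (SE), and between -0.55 (without BD2) and -0.19 (without BD3) when 1 animal was left out. These comparisons with virgins share the same 5 animals. The 95% interval of Cfb reached -1.30 against bond-disrupted and -1.23 against bonded males. In both comparisons the intervals of C3, C1qb and C1qc also reached below -1.

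**Figure D3:**
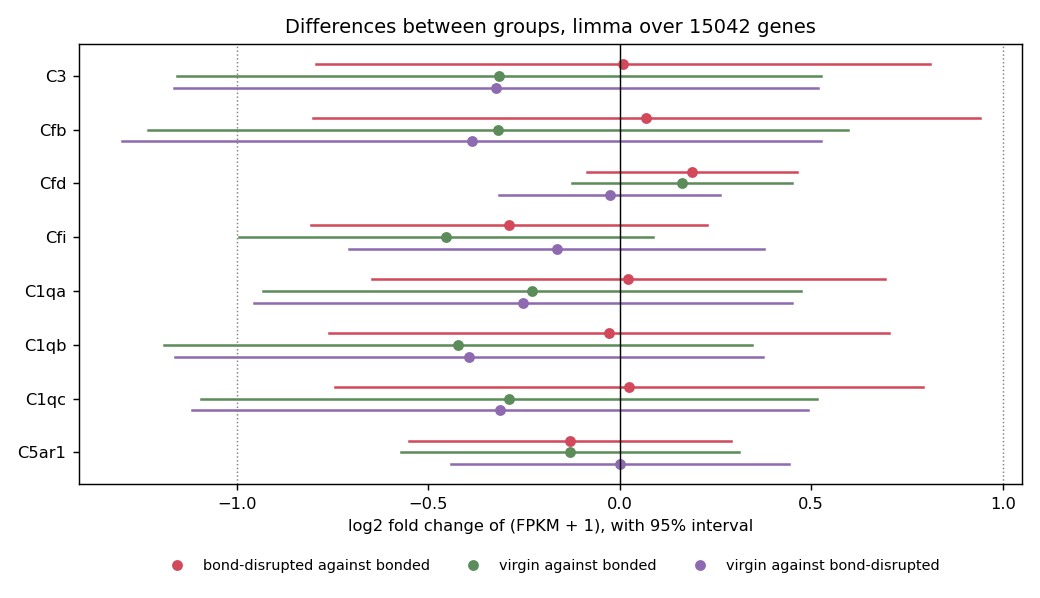
Log2 fold changes of FPKM + 1 with 95% intervals from limma for the 8 genes in the 3 comparisons. The dotted lines mark a 2-fold change of FPKM + 1. Every interval includes 0, and that of Cfd is the narrowest.

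The spread between animals of a group was wide for most of these genes. On the log2 scale the SD around the group means was 0.71 for C3, 0.77 for Cfb, 0.59 for C1qa, 0.64 for C1qb and 0.68 for C1qc. Over all 15042 genes the median was 0.21. Of all genes, 96.7% had a smaller SD than C3 and 97.4% a smaller SD than Cfb, and for the C1q chains the share was 94.4% to 96.2%. Cfi (0.45) and C5ar1 (0.37) were above the median as well. Cfd was nearest to it, with an SD of 0.23, larger than that of 57.1% of genes. The spread of C3 was lower among virgins than among paired males (SD 21.6 FPKM, against 48.7 and 63.4), and this difference was not tested.

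Brothers were compared because the families run through both paired groups. For C3 the order of the 6 families was the same in both groups: family 1 lowest, then 5, 2, 4 and 3, with family 6 highest. Family 1 had 50.1 FPKM in the bonded and 43.4 in the bond-disrupted brother, and family 5 had 56.6 and 65.0 FPKM. Families 2 and 4 had 79.5 and 73.7 FPKM, and 126 and 97.4 FPKM. In family 3 the brothers had 142 and 171 FPKM, and in family 6 they had 169 and 202 FPKM. Brothers thus differed by 0.24 on the log2 scale on average, and males of different families by 0.97. Pearson's r between brothers was 0.95, with Spearman's rho of 1 and an exact one-sided p of 0.00139, the smallest that 720 pairings can give. Adjusted over all 14996 genes that could be tested, it was 0.443, and 47 genes reached that smallest p.

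Cfb followed, with r = 0.83, rho = 0.94 and an exact p of 0.0125 (adjusted p = 0.534). Its brothers differed by 0.47 on the log2 scale on average, against 1.07 between families. The remaining 6 genes had larger p. For Cfi, r was 0.74 with an exact p of 0.113, and it fell to -0.30 without family 6. The values of r were 0.46 for C1qa, 0.41 for C1qb, 0.24 for Cfd, 0.23 for C1qc and -0.06 for C5ar1. So 2 of 8 members, C3 and Cfb, had an exact p under 0.05, against 7.87% of all genes (1180 of 14996), and no gene had an adjusted p under 0.1. C3 and Cfb move together across animals (r = 0.94), so these 2 are not separate observations. Leaving out the 2 bonded males farthest from the median left r at 0.92 for C3 and 0.83 for Cfb. Without family 1, 1 of the 8 genes had an exact p under 0.05, and r was 0.65 for Cfb. The sources used here do not say whether brothers were also handled or sequenced together, so kinship and shared handling cannot be told apart.

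The virgins give a partial look at the same families. The study's text names V2 as a brother and V3 as a cousin, and does not name the relation of V6. V3, V4 and V2 had 97.5, 95.1 and 74.1 FPKM of C3, and V5 had 79.6 FPKM. V6 had 43.8 FPKM, the lowest virgin value and below every male but BD1, whereas B6 and BD6 had the highest values of their groups. V6 thus went against the order of families seen in the paired males. With 5 virgins no correlation was computed.

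**Figure D4:**
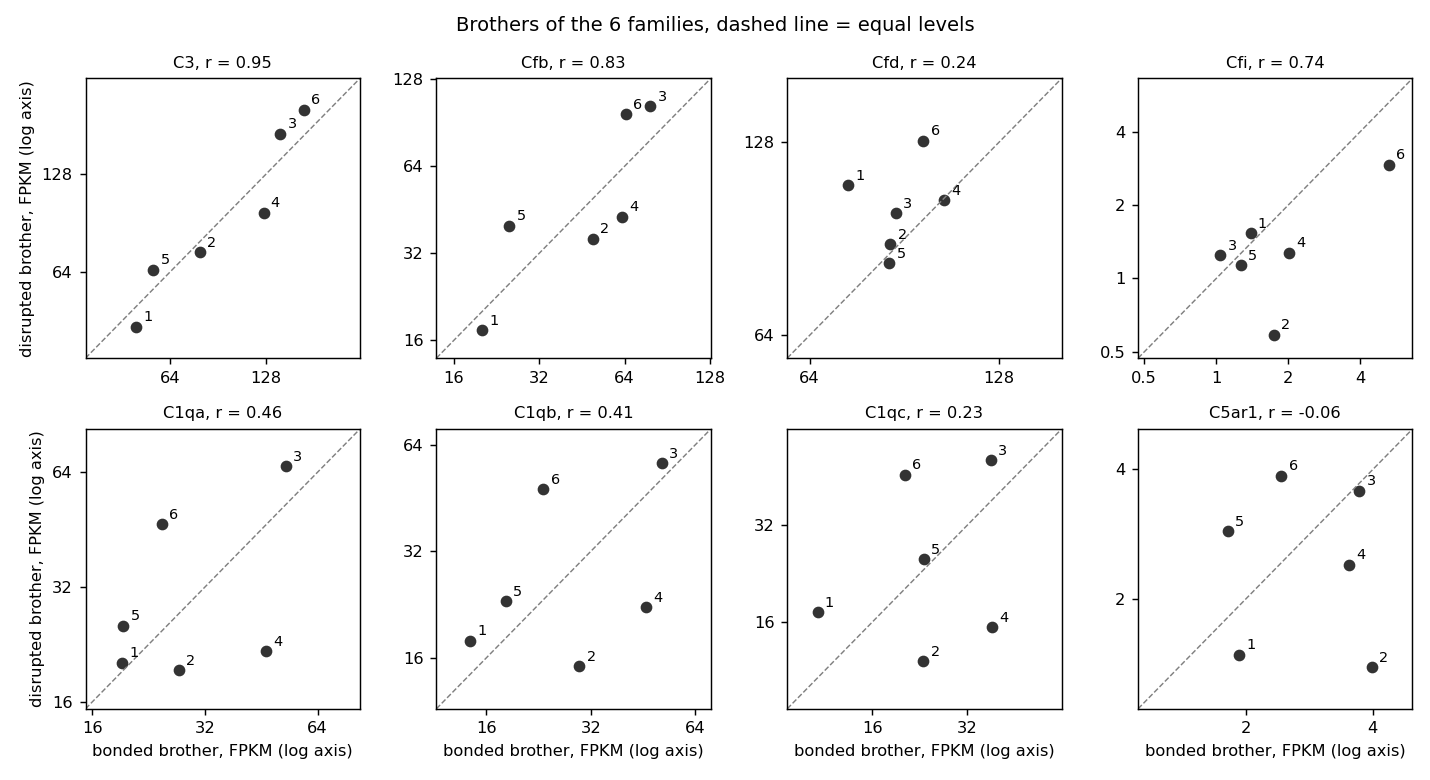
FPKM of the bonded (x axis) and the bond-disrupted (y axis) brother of each family on log axes, 1 point for each of 6 families, with Pearson's r of the log2 values. For C3 the points follow the dashed line of equal levels from family 1 to family 6, whereas C5ar1 shows no order.

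Across all 17 animals most of these genes rose and fell together. The 3 C1q chains were the closest. C1qa and C1qb had r = 0.97 (rho = 0.98), C1qb and C1qc 0.92 (rho = 0.88) and C1qa and C1qc 0.92 (rho = 0.88). For C3 with Cfb r was 0.94 (rho = 0.91). Each of these 4 had an adjusted permutation p of 1.75e-05 over the 7 relations computed. Their unadjusted p of 1e-05 is the smallest that the permutations can give. The permutations treat the 17 animals as independent, which brothers are not. The permutation p here and below may therefore be too small. Without the 2 animals farthest from the median, r was 0.96, 0.89, 0.89 and 0.91 in that order. As deposited, none of the 7 relations had an adjusted p under 0.05, and r for C1qa with C1qb was 0.24.

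Since B3, B4, BD3 and BD6 stand apart in C1qb, the relations were also computed over the other 13 animals, a choice made after seeing the values. Then r was 0.88 for C1qa with C1qb, 0.77 for C1qb with C1qc and for C1qa with C1qc, and 0.87 for C3 with Cfb, with adjusted permutation p between 0.000385 and 0.00432.

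Between the C1q chains and the alternative pathway genes, r was highest for C1qb with Cfb, at 0.89 (rho = 0.91, adjusted permutation p = 4.67e-05 over all 28 pairs of the 8 genes). It was 0.75 over the 13 animals, with an adjusted permutation p of 0.0182. C3 with C1qb had r = 0.82, which came down to 0.61 over the 13 animals, with an adjusted permutation p of 0.0693. C5ar1 went with C1qb at r = 0.82 (rho = 0.87), and at 0.74 over the 13 animals. Of the 28 pairs, 16 had an adjusted p under 0.05, all with positive r, and 9 did over the 13 animals. None of the 7 pairs with Cfd was among the 16, and of those with Cfi only the pair with C3 was, at r = 0.54 and rho = 0.38.

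C1qa and the macrophage gene Cd68, which encodes a lysosomal protein, had r = 0.78 (rho = 0.71) with an adjusted permutation p of 0.000126, and r = 0.34 over the 13 animals. The 9 macrophage markers recovered out of 10 summed to 119 to 308 FPKM in bonded, 136 to 354 in bond-disrupted and 121 to 267 FPKM in virgin males. BD3, B4 and BD6 had the highest sums, 354, 308 and 303 FPKM, and B1 and V6 the lowest, 119 and 121 FPKM. None of the 9 was at 0 and none was called or had an unadjusted p under 0.05 in a comparison of groups. The part of macrophage content in the levels of the C1q chains was not tested. In BD6 all 8 complement genes were among the 3 highest values of the 17 animals. Its endothelial markers (4 of 5 recovered) and fibroblast markers (5 of 5) were the lowest, at 373 and 726 FPKM in sum, and its type 2 alveolar markers (4 of 6) the highest, at 32148 FPKM. Their part was not tested either. No marker of any list was called. An unadjusted p under 0.05 was seen for the surfactant gene Sftpb in both comparisons with bonded males and for the hepatocyte gene Fgb in bond-disrupted against bonded males.

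C5ar1 and the neutrophil gene Csf3r, the receptor for granulocyte colony-stimulating factor, had r = 0.52 (rho = 0.54) with an adjusted permutation p of 0.0366. Without BD2 and BD1, the animals farthest from the median of C5ar1, r was 0.30, and leaving out 1 animal at a time gave 0.38 to 0.76. Within the bonded and the bond-disrupted males alone (6 each) r was 0.75 and 0.87. The 5 virgins, too few for r, did not follow this order, since V2 had the highest Csf3r of all animals, 15.5 FPKM, with the lowest virgin C5ar1, 1.78 FPKM. The 6 neutrophil markers recovered out of 10 summed to 12.5 FPKM in BD2 and 74.0 FPKM in V5. Cfd and Adipoq showed no relation that passed the test, with r = 0.18 (rho = 0.19) and an adjusted permutation p of 0.487. Hepatocyte markers (7 of 7 recovered, none at 0) summed to 7.93 to 36.1 FPKM. They were lowest in B6, the third highest in C3, and highest in BD1, the lowest in C3.

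The genes closest to C1qb over the 17 animals among the other 15041 were C1qa, Sat1 (r = 0.94), C1qc, the unnamed LOC128095093 (r = 0.92) and Dmkn (r = 0.92). Sat1 encodes an enzyme that acetylates polyamines and Dmkn a secreted epidermal protein. Among the 5 closest to Cfd were Slc25a10 (r = 0.79), a mitochondrial dicarboxylate carrier, LOC128101774 (r = 0.78), Cmbl (r = 0.75) and Bscl2 (r = 0.74), which encodes seipin of the lipid droplet. These are the top values out of all genes and carry no test.

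The remaining complement genes were taken from a list of 55 symbols, of which 33 were found, 28 had all values recovered and 22 passed the filter. None of the 22 was called and none had an unadjusted p under 0.05 in any comparison. Bond-disrupted against bonded, 15 were higher and 7 lower, with a median log2 fold change of 0.11. In virgins 7 were higher and 15 lower than in bonded males, and 8 higher and 14 lower than in bond-disrupted males, with medians of -0.07 and -0.14. Over all genes each of the 3 medians was 0.01 or less.

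The 3 most abundant were regulators and a late component. Serping1 encodes the inhibitor of the C1 proteases, and its means were 373 ± 26.4 FPKM (SD, n = 6) in bonded, 416 ± 85.1 (SD, n = 6) in bond-disrupted and 356 ± 50.7 FPKM (SD, n = 5) in virgin males. Clu, or clusterin, an inhibitor of the membrane attack complex, had 329 ± 51.2, 393 ± 84.3 and 335 ± 39.1 FPKM (SD). C7, a component of that complex, had 320 ± 27.5, 361 ± 117 and 319 ± 51.5 FPKM (SD). All 3 were more abundant than C3, and BD2 and BD3 were the 2 highest animals for each. They did not pass the test of a relation with C3, with r of 0.12 for Serping1, 0.44 for Clu and 0.35 for C7.

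Some of the others did go with C3, and the ones named here were chosen after their values were seen. Of the 22, 7 had an adjusted permutation p under 0.05 in their relation with C3. The proteases of the classical pathway gave the highest r, with C1r at 0.86 (rho = 0.90), C1s at 0.83 (rho = 0.79) and C2 at 0.82 (rho = 0.74). C1r and C1s are the proteases bound to C1q, and C2 serves in the classical convertase. C2 and Cfb are neighbours in mammalian genomes and may share fragments. C1r was highest in BD3, at 99.7 FPKM, then in BD6 and B3, against 26.2 FPKM in BD1. The complement receptor genes Vsig4 and Itgb2 had r = 0.59 each, and 0.36 and 0.38 without BD6 and BD3. Colec12, a scavenger receptor with a lectin domain, went the other way at r = -0.72 (rho = -0.81). Without BD6 and BD3, r was 0.81 for C1r, 0.74 for C1s, 0.72 for C2 and -0.69 for Colec12. Over the 13 animals none of the 22 had an adjusted p under 0.05, and the nearest was C1r at r = 0.74 with an adjusted permutation p of 0.0858.

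Between brothers, 2 of the 22 had an exact p under 0.05, against 7.87% of all genes, namely Cr1l and C5ar2, with r of 0.90 and 0.78. Cr1l encodes a regulator of C3 convertases on cell surfaces and C5ar2 a second receptor for C5a. C1r had r = 0.70 with an exact p of 0.0681, and for Serping1 and C7 r was below 0.

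**Figure D5:**
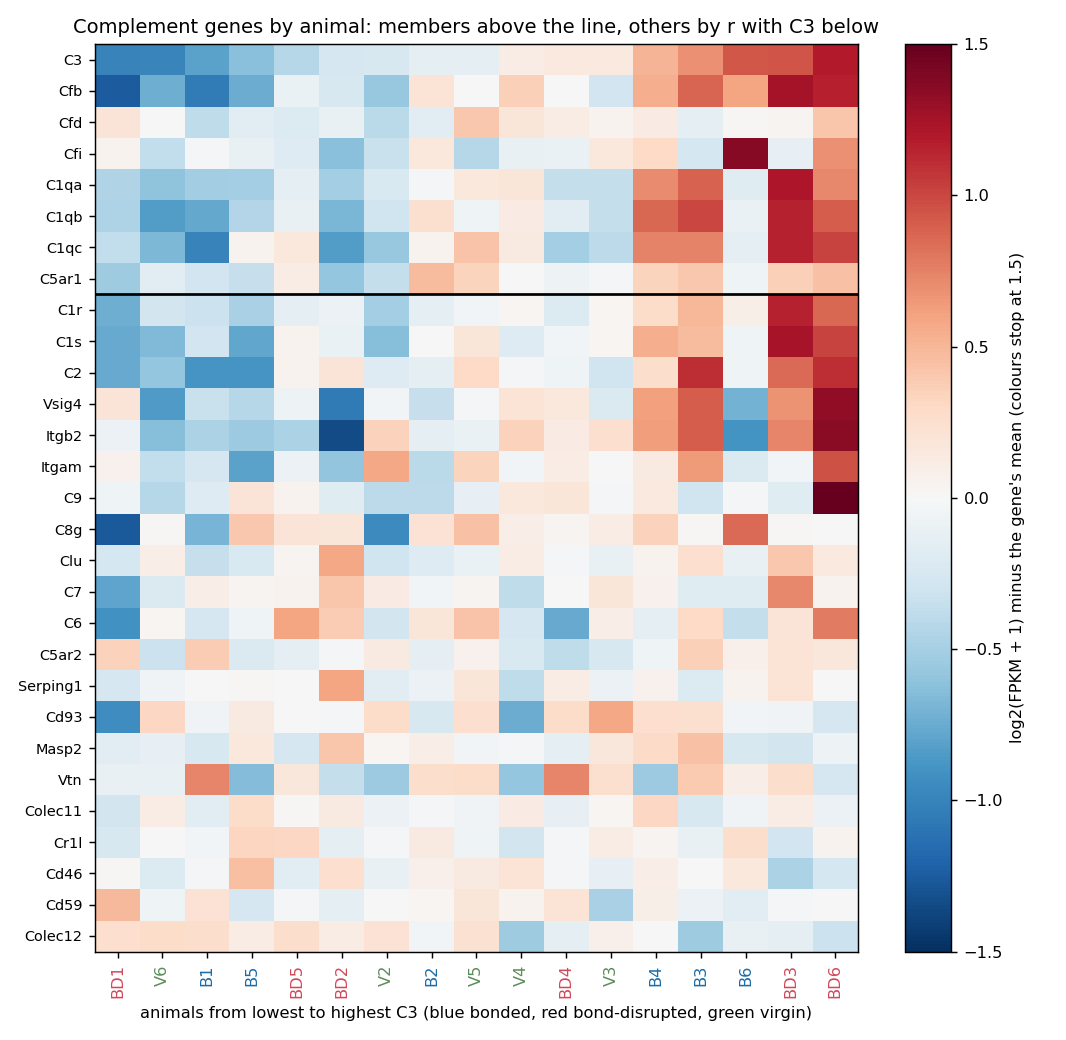
Log2(FPKM + 1) minus the gene's mean for the 8 members (above the line) and other complement genes (below, by r with C3), with the 17 animals ordered from lowest to highest C3. Cfb, the C1q chains, C1r, C1s and C2 turn from blue to red toward BD3 and BD6 at the right, while Serping1 and the genes beneath it, other than Colec12, show no such order.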

How the data were processed

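Lung RNA of 6 bonded, 6 bond-disrupted and 5 virgin males was measured, 1 library per animal. The labels name a directional library kit, and the submitters' processing notes name FastQC, Trim Galore 0.4.5, STAR 2.7.2, SAMtools 1.5, featureCounts and Subread 1.5.3. The genome build is not given in the sources used here. The authors deposited FPKM per gene and animal, which they tested with limma.

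Each deposited value was found to be divided by the length of a gene as many rows above as the column's number. Library depths were solved first, from small RNA genes taken at their RefSeq lengths. Other lengths were chosen so that fragments came out whole. Between lengths in a simple ratio, closeness of the values to each gene's median across animals also counted. Lengths that left values far from their genes' medians were not used. Small RNA genes (1525) kept their RefSeq length where it gave whole fragments, so their agreement with RefSeq is built in. Of 352868 values, 81.7% came out whole within 0.001, which is also what the lengths were chosen for. Values were then recomputed on each gene's own length. Genes reaching 1 FPKM in at least 1 animal (15042) were tested on log2(FPKM + 1) with limma 3.58.1 in R 4.3.3, all 3 groups in 1 fit, with Benjamini-Hochberg adjustment. Fold changes on this scale understate the change of low genes. Genes were called where they changed at least 2-fold with an adjusted p under 0.1. Brothers were compared by Pearson's r of log2 values with an exact one-sided test over 720 pairings. Relations across animals used 100000 permutations, two-sided, adjusted within each family of relations. They treat animals as independent and ignore that many are brothers. Of 9 relations planned, 7 could be run. Other steps used Python 3.11.15, NumPy 2.4.6, pandas 2.3.3, SciPy 1.17.1 and numba 0.67.0, and figures used matplotlib 3.10.9. The length recovery was tested on simulated data. Depth was 15394248 to 34115992 fragments per library.

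The study's text, not the labels, gives same-numbered bonded and bond-disrupted males as brothers, which pairs them. Over the 1000 most variable genes the deviations of the 6 pairs from their group means correlated at 0.10 to 0.42. The median was -0.00 for pairs of different number and group. Virgins with paired males of their number, brothers or cousins, gave only -0.24 (B2 with V2) to 0.12 (B4 with V4).

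The 8 recovered members were all named. Of the other complement genes, those called or with an unadjusted p under 0.05 and the 3 with the highest mean were named, and for C1qb and Cfd the 5 genes most like each. Some genes that were counted are not reported here by name. Members and lists were chosen with earlier results of these data known, and the values entered the choice of members only through the length correction. The 28 pairs of members, the relations of C3 with other complement genes and the sets without 4 animals were added after seeing the data. P-values measure the spread between these animals.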

Additional observations from a re-analysis of the deposited data

Results flagged for a closer look

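Cfi in the bonded male B6, at 5.29 FPKM, stood far above the other 5 bonded males, of which the next highest had 2.02 FPKM. This was 1 of 33 groups checked over 11 genes, and chance flags about 1 in 20 such groups. BD6, the brother of B6, had the highest Cfi of its group, at 2.93 FPKM. Without B6 the log2 fold change of Cfi was -0.06 in bond-disrupted and -0.23 in virgin males, both against bonded males.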

How the results depend on the processing

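No complement gene was called under any alternative for any of the 3 comparisons. Of 704 alternative fold changes of the 8 genes, 683 moved by less than 1 SD and 637 kept their sign, and the lowest adjusted p in limma was 0.359. That SD is the spread between animals around the group means, wider than the SE of a fold change. Many alternatives, such as another filter or leaving out an animal of the third group, cannot change a fold change. These counts are therefore a lenient check. The 21 that moved farther came from the deposited values (8) and from RefSeq gene lengths (13). With RefSeq gene lengths, 2 genes, C3 and C5ar1, had an unadjusted p under 0.05 in virgins against bonded and 2 in virgins against bond-disrupted males. Leaving out 1 animal gave 0 to 1 such genes in virgins against bonded males, the 1 being Cfd without V2. Over all genes, the deposited values gave 40, 113 and 35 calls of 18602 in the order bond-disrupted against bonded, virgin against bonded and virgin against bond-disrupted, and RefSeq lengths gave 0, 19 and 0 of 17948, against 0 in each with own lengths. Lengths estimated as a diagonal effect gave 0, 2 and 0 calls of 15067, and leaving out B4 gave 1, 1 and 0. Genes at an unadjusted p under 0.05 in virgins against bonded males numbered 539 with own lengths, 1556 as deposited, 1316 with RefSeq lengths, 1453 with the diagonal effect, 926 without the filter and 884 without V4. In virgins against bond-disrupted males they numbered 639, and under the first 4 of these alternatives 1257, 1067, 855 and 984, and 1072 without BD2. In bond-disrupted against bonded males 886 became 1365 without the filter, over 22805 genes. With the replicate block for animal number, 0 complement genes were called and 0 had an unadjusted p under 0.05 in each comparison, and the block changed no other call. Between brothers, 0 complement genes had an exact p under 0.05 with the deposited values and 0 with RefSeq lengths, and leaving out 1 family gave 1 to 2, the 1 being without family 1. None of the 7 relations across animals passed with the deposited values (0, against 6). The cause of these changes was not tested beyond the lengths used.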
